A study of Homo sapiens with 4 samples.

Results

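The 10 genes described here encode the FOS and JUN subunits of the transcription factor AP-1 (FOS, FOSB, FOSL1, FOSL2, JUN, JUNB and JUND) and the immediate early genes EGR1, IER2 and IER3. They were taken by symbol from the platform annotation, with the probe set of the highest mean over the arrays standing for each gene. Every member had 1 probe set, so all 10 were found among 17687 named genes, and no filter on low values was applied. The 4 samples were A549, an established human lung adenocarcinoma line, each carrying a short hairpin RNA against LDOC1. Of these, 2 (group H2BK120R) made the H2B mutant H2BK120R, in which arginine takes the place of the lysine that receives monoubiquitin, and 2 (group vector) were the matching vector control line. All lines were kept in puromycin, and RNA was taken from cultures that were nearly confluent. According to the submitters' design text, monoubiquitylated H2B (H2Bub1) went up with the hairpin and was brought down by the mutant. The comparison therefore asks how these genes differ when the mark is reduced in LDOC1-depleted cells. Cells with intact LDOC1 or with an unmutated H2B construct were not analysed here. Which promoter drives the constructs, and whether a line is 1 clone, are not stated in the labels.

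AP-1 is a dimer of basic leucine zipper proteins that binds DNA at the sequence TGACTCA or TGAGTCA. JUN proteins form dimers with each other or with FOS proteins, whereas FOS proteins need a JUN partner. Immediate early genes are transcribed within minutes of growth factor or stress signals without new protein synthesis, mainly through MAP kinases acting on serum response factor and its ternary complex partners. Their mRNAs are short-lived, and in epithelial tumour cells AP-1 controls genes of proliferation, invasion and matrix breakdown. H2Bub1 is laid down along transcribed genes and is known to accompany elongation by RNA polymerase II.

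The sequences just before the start of 5 of these genes are shown so that matches to known control elements can be seen. They are the 3 JUN genes and EGR1, whose arrays did not overlap between the groups below, and FOS, the founding member, whose arrays did. The arrays of FOSL1, FOSL2 and IER3 did not overlap either. The FOSL2 sequence was searched but is not shown, and FOSL1 and IER3 had no promoter sequence. The sequences are from RefSeq on GRCh38.p14, are the 250 bases before the annotated start, and read 5′ to 3′ on the strand of the gene. The coordinates are chr1:58784048-58784297 (minus strand) for JUN, chr19:12791236-12791485 (plus) for JUNB, chr19:18281623-18281872 (minus) for JUND, chr5:138465229-138465478 (plus) for EGR1 and chr14:75278578-75278827 (plus) for FOS. Capitals mark a CArG box, which serum response factor binds, the core TGACGT of the cAMP response element (CRE) on either strand, and the AP-1-like TGACATCA.
JUN: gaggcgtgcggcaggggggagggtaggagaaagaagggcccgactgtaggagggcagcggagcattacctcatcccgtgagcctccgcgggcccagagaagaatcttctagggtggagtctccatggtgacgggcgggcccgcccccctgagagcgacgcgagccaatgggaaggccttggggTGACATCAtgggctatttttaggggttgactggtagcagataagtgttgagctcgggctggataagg
JUNB: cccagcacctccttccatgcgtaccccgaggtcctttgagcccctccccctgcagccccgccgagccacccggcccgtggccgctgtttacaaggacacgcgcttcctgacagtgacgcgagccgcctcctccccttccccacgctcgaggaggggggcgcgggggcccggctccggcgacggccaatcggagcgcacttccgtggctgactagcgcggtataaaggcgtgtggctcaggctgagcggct
JUND: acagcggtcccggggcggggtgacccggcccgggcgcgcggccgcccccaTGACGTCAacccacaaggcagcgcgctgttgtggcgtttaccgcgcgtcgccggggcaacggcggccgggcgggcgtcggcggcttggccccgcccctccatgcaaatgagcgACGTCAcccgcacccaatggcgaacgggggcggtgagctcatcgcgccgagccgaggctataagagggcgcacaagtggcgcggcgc
EGR1: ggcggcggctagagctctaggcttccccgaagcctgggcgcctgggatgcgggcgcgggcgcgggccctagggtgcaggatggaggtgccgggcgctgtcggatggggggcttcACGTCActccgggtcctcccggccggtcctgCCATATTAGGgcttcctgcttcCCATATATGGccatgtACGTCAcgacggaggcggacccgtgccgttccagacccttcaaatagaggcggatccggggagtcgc
FOS: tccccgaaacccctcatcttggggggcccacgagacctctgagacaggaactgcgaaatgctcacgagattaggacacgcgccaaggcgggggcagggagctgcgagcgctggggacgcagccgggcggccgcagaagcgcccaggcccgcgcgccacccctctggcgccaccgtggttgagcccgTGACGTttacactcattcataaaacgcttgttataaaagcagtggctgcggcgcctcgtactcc

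In this window, EGR1 held 2 CArG boxes, CCATATTAGG at 105 to 96 bases and CCATATATGG at 83 to 74 bases before the start, with a CRE core on either side of them. The CArG box was present in 1 of the 8 members with a promoter sequence, and in 1.16% of 35116 promoters of the same length. Bases farther upstream were not searched, so a member without a match here may still hold a CArG box there. JUN held TGACATCA at 67 to 60 bases before its start, a match found in 1 of 8 members and 2.37% of promoters. A CRE core (TGACGT or its reverse complement ACGTCA) was present in 5 of 8 members (FOS, FOSB, FOSL2, JUND and EGR1) and in 7.1% of promoters. In JUND the matches at 200 to 195 and 198 to 193 bases before the start overlap, being both strands of 1 palindrome, TGACGTCA. JUNB held TATAAA at 31 to 26 bases and none of the capitalised motifs, and FOS and FOSB held both a CRE core and TATAAA (3 of 8 members, 10.7% of promoters on either strand). The AP-1 consensus TGACTCA or TGAGTCA was in 0 of 8 members and 4.2% of promoters, and the EGR sites GCGTGGGCG or GCGGGGGCG in 0 of 8 and 5.37%. The GC box GGGCGG was common to both sets, in 6 of 8 members and 42.6% of promoters. The members were rich in CpG, with a median of 24.5 CpG dinucleotides per window and 69% G or C, against 11 and 58% over all promoters. The 35116 promoters were not limited to genes on the array or matched for CpG, and the CRE core itself holds a CpG. Whether CpG content accounts for the CRE share of the members was not tested. All motifs were searched on both strands. A match describes the letters in this window and is not a measured binding site.

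**Figure D1:**
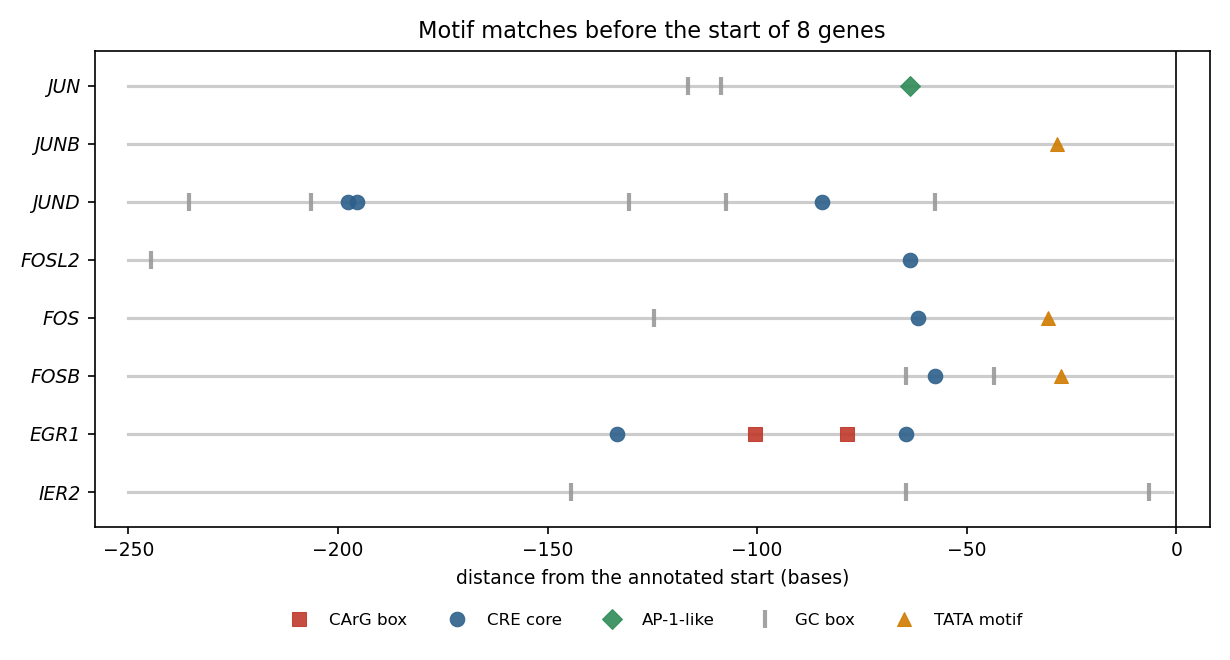
Positions of motif matches in the 250 bases before the annotated start of the 8 members with a promoter sequence, 1 line per gene, with the distance from the start in bases on the x axis and 1 symbol per kind of motif on either strand. Within these 250 bases the 2 CArG boxes lie only in EGR1 among these 8, and bases farther upstream were not searched. The CRE cores of FOS, FOSB and FOSL2 lie between 66 and 55 bases before the start.

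On each array 21448 probe sets had a log2 level, the array medians lay between 6.40 and 6.43, and Pearson correlations across probe sets lay between 0.990 and 0.994. The labels do not say that replicates came from separate cultures, so the p-values cover only how far these arrays vary, which may be technical variation. Of 11 lung epithelial markers 6 had a mean above the median probe set, among them KRT8 and KRT18. By array, 6 were above the array median on vector replicate 1 and 5 on each of the others. EPCAM (5.16 to 5.76), the surfactant gene SFTPC (3.86 to 4.16) and NKX2-1 (3.94 to 4.52) were dim on all arrays. By gene, 7 of the 11 were higher and 4 lower with H2BK120R, and 0 passed. In limma CDH1 (0.60 ± 0.15, SE, adjusted p = 0.650) and KRT7 (-0.32 ± 0.11, adjusted p = 0.722) had an unadjusted p under 0.05, in opposite directions. Leukocyte markers were above the array median for 2 of 10 genes on every array, with the pan-leukocyte gene PTPRC between 4.41 and 5.15. Their mean level was 5.22 and 5.05 with H2BK120R, against 5.01 and 4.79 with vector. By gene, 9 of 10 were higher with H2BK120R, with a median difference of 0.21, and 0 passed. Their part in the results was not tested. Fibroblast and endothelial markers averaged 4.83 and 4.68 with H2BK120R, against 4.83 and 4.76 with vector, and 5 of 10 were higher. Levels are those of whole cultures, in which fewer cells expressing a gene and less RNA per cell cannot be told apart. The level of 1 probe set is not comparable with that of another, so levels below are compared only between arrays, apart from naming dim probe sets.

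No member passed the adjusted threshold. In limma, 0 of the 10 members and 0 of all 21448 probe sets (0%) had a Benjamini-Hochberg adjusted p under 0.05. At an unadjusted p under 0.05, limma called 1 member, FOSL1, and 1437 probe sets (6.7%). In the lower direction the background was 3.08%, and in the higher direction, in which 0 members were called, it was 3.62%. By sign alone, 7 of 10 members were lower with H2BK120R, against 49.4% of probe sets, and 3 were higher, against 49.9%. Both H2BK120R arrays lay below both vector arrays for 6 members, JUN, JUNB, JUND, FOSL1, FOSL2 and EGR1, where 17.9% of all probe sets did so. In either direction the groups did not overlap for 7 members and for 36.5% of probe sets. IER3 was the 1 member with both H2BK120R arrays above both vector arrays, a pattern of 18.6% of probe sets. The median difference was -0.18 over the members and 0.00 over all probe sets (log2, H2BK120R minus vector). The members were chosen with earlier results of these data known, and all were read on the same 4 arrays. They are therefore not independent observations, and these shares are a description only. With 2 arrays against 2, the smallest two-sided p of an exact permutation test of 1 gene is 0.333. The plot of levels by array shows these values gene by gene.

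**Figure D2:**
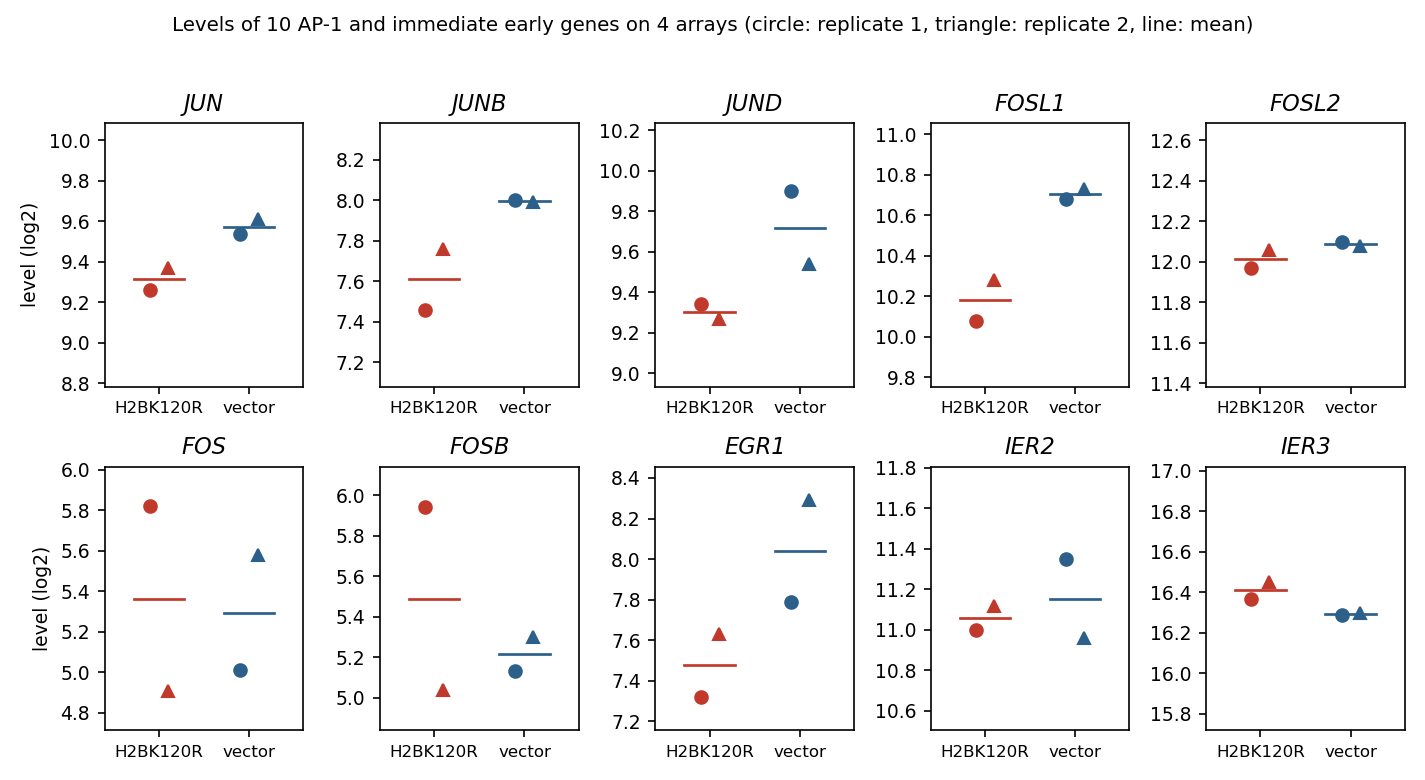
Level (log2, y axis) of each of the 10 genes on the 2 H2BK120R arrays (red, left) and the 2 vector arrays (blue, right), where circles are replicate 1, triangles replicate 2 and lines group means. The y axes differ in position and not in span. The red and blue points do not overlap for JUN, JUNB, JUND, FOSL1, FOSL2, EGR1 and IER3.

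The 3 JUN genes, which supply the partner that every FOS protein needs, were all lower with H2BK120R, and none passed. JUN, the strongest activator of the family, was at 9.26 and 9.37 in H2BK120R cells, against 9.54 and 9.61 in vector cells. JUNB, an activator that is weaker than JUN and can restrain it, was at 7.46 and 7.76 in H2BK120R cells, against 8.0 and 7.99 in vector cells. JUND, the member known to be present in resting cells and least inducible by growth factors, was at 9.34 and 9.27 in H2BK120R cells, against 9.90 and 9.54 in vector cells. In each case both H2BK120R arrays were the low ones. The JUN and JUNB vector arrays were close together, whereas JUND differed by 0.36 between its vector arrays, nearly as much as between the groups.

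The JUN difference was -0.26 ± 0.18 (SE) on the log2 scale, or 83.5% of the vector level, with a limma adjusted p of 0.806. For JUNB it was -0.39 ± 0.23, or 76.6% of the vector level (limma adjusted p = 0.777). JUND differed by -0.42 ± 0.19, or 75% of the vector level (limma adjusted p = 0.745). Values after ± are limma's standard errors throughout. The 95% confidence intervals ran from -0.66 to 0.14 for JUN, from -0.90 to 0.13 for JUNB and from -0.84 to 0.01 for JUND, so each holds 0. With 1 array left out the JUND difference lay between -0.60, without vector replicate 2, and -0.24, without vector replicate 1. Those of JUN lay between -0.32 and -0.21 and those of JUNB between -0.54 and -0.24, the smaller one without H2BK120R replicate 1. The sign of all 3 was the same under every normalization. With any 1 array left out it could not change, since both H2BK120R arrays lay below both vector arrays.

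Of the 4 FOS genes, FOSL1 was lower with H2BK120R beyond the spread of its replicates, and FOSL2 hardly differed. FOS and FOSB varied more between their H2BK120R replicates than between the groups. FOSL1 and FOSL2 lack the strong activation domain of FOS and FOSB. FOSL1 (also FRA1), which is known to be induced by RAS and ERK signalling in epithelial tumours, was at 10.08 and 10.28 in H2BK120R cells, against 10.68 and 10.73 in vector cells. Its lowest vector array was 0.40 above its highest H2BK120R array, and the replicates differed by 0.20 and 0.05. FOSL1 had a difference of -0.53 ± 0.16 (SE), or 69.5% of the vector level, with an interval from -0.89 to -0.16 and a limma adjusted p of 0.693. By unadjusted p it ranked 259th of 21448 probe sets. It stayed under an unadjusted p of 0.05 in 11 of 12 other settings, the exception being without H2BK120R replicate 1, where its difference was -0.43. With 1 array left out, limma called 0 members lower without H2BK120R replicate 1 (background 1.68%) and 1, FOSL1, without H2BK120R replicate 2 (1.14%). It called 2 without vector replicate 1, FOSL1 and EGR1 (2.53%), and 2 without vector replicate 2, FOSL1 and JUND (5.34%), all at an unadjusted p under 0.05.

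FOSL2 (also FRA2), the closest relative of FOSL1, was at 11.97 and 12.06 in H2BK120R cells, against 12.10 and 12.08 in vector cells. The groups did not overlap, yet they were only 0.02 apart at the nearest arrays. Its difference of -0.08 ± 0.13 (SE) had a limma adjusted p of 0.932 and an interval from -0.37 to 0.22. Whether FOSL1 and FOSL2 differ in their response was not tested.

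FOS, the prototype of the family, was at 5.82 and 4.91 in H2BK120R cells, against 5.01 and 5.58 in vector cells. FOSB, a FOS paralog best known from neurons, was at 5.94 and 5.04 in H2BK120R cells, against 5.13 and 5.30 in vector cells. Both probe sets were dim, below the median probe set of every array (6.40 to 6.43), so their variation may be that of values near background. For both genes H2BK120R replicate 1 was the highest and replicate 2 the lowest of the 4 arrays, so the groups overlapped. The gap between the H2BK120R replicates was 0.91 for FOS and 0.90 for FOSB, the widest of all members. FOS differed by 0.07 ± 0.37 (SE, limma adjusted p = 0.979) and FOSB by 0.28 ± 0.35 (limma adjusted p = 0.895). Without H2BK120R replicate 1 the differences were -0.39 and -0.18. The FOS interval, from -0.75 to 0.89, is wide enough that a 1.5-fold difference in either direction was not detectable at this precision.

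EGR1, a zinc finger transcription factor of the immediate early class, had the largest difference of the 10. It was at 7.32 and 7.63 in H2BK120R cells, against 7.79 and 8.29 in vector cells. Both H2BK120R arrays were low, with a gap of 0.16 to the nearest vector array, while the replicates differed by 0.31 and 0.50. The difference was -0.57 ± 0.26 (SE), or 67.6% of the vector level, with an interval from -1.13 to 0.0036 and a limma adjusted p of 0.745. With 1 array left out it lay between -0.82, without vector replicate 1, and -0.32, without vector replicate 2.

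The estimated differences of IER2 and IER3 were small, and the interval of IER2 was the wider. IER2, a nuclear immediate early protein, was at 11.00 and 11.12 in H2BK120R cells, against 11.35 and 10.96 in vector cells. Vector replicate 2 was its lowest array and vector replicate 1 its highest, so the H2BK120R arrays lay inside the vector range. Its difference was -0.10 ± 0.17 (SE, limma adjusted p = 0.933), with an interval from -0.47 to 0.28. Without vector replicate 1 the IER2 difference was 0.10. IER3, a stress-inducible gene that modulates ERK signalling and apoptosis, was at 16.37 and 16.45 in H2BK120R cells, against 16.29 and 16.30 in vector cells. All its arrays lay within 0.16 of each other, with both H2BK120R arrays on top. IER3 differed by 0.12 ± 0.09 (SE, limma adjusted p = 0.829), with an interval from -0.09 to 0.32.

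**Figure D3:**
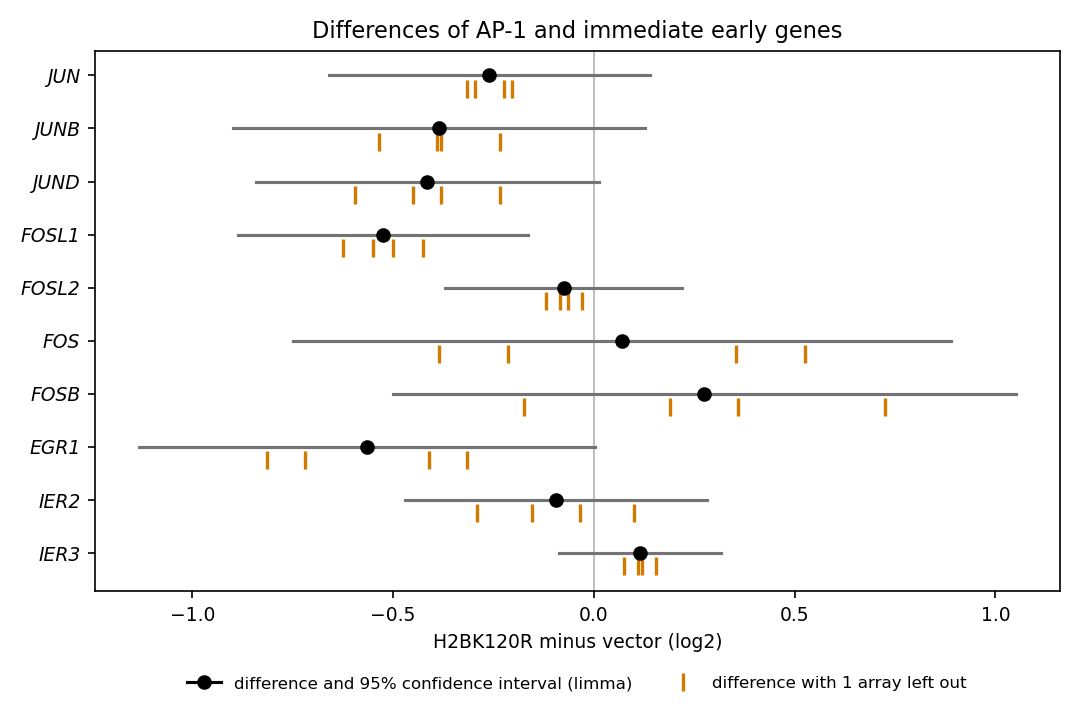
Difference between H2BK120R and vector (log2, x axis) for each gene, with its 95% confidence interval from limma (grey line) and, as orange ticks, the 4 differences with 1 array left out. Only the FOSL1 interval excludes 0, and the ticks of FOS, FOSB and IER2 lie on both sides of it.

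Set array against array, the members differed among themselves. Each H2BK120R array minus each vector array gave 4 differences per gene. By definition these were all negative for the 6 genes with H2BK120R arrays below vector arrays, and all positive for IER3 (0.07 to 0.16). The negative ranges were -0.35 to -0.17 for JUN, -0.13 to -0.02 for FOSL2, -0.65 to -0.40 for FOSL1, -0.97 to -0.16 for EGR1, -0.63 to -0.20 for JUND and -0.54 to -0.23 for JUNB. For FOS the same 4 differences ran from -0.67 to 0.81. H2BK120R replicate 1 was the lowest array for 5 members and the highest for 2, FOS and FOSB. On each H2BK120R array 7 members lay below their own mean, and on each vector array 7 lay above it. They were not the same genes on every array. On H2BK120R replicate 2 those below included FOS and FOSB, but not FOSL2 and IER2. As a measure of likeness over the 4 arrays, the Euclidean distance between 2 genes' deviations from their own means was smallest for FOSL1 and JUNB, at 0.16. It was 0.19 for FOSL2 and IER3, whose differences had opposite signs and were small, and also for JUN and JUNB. EGR1 had the widest range of the 10, and the 5 named genes outside the family nearest to it were SLC35C1 (0.046), PWWP3B (0.051), RNASEH2A (0.055), ZNF157 (0.070) and MAJIN (0.077). With 4 arrays such nearness is a description only.

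Other immediate early genes and AP-1 partners were split between lower and higher. Of 23 measured genes for other immediate early transcription factors, 13 were lower with H2BK120R and 10 higher, with a median difference of -0.05. In limma 1 of them had an unadjusted p under 0.05, in the higher direction, and 0 an adjusted one. That gene was NR4A1, an orphan nuclear receptor induced by many of the same stimuli as EGR1. It was at 14.45 and 14.53 in H2BK120R cells, against 13.99 and 14.18 in vector cells, a difference of 0.41 ± 0.12 (SE, limma adjusted p = 0.678). The next genes by p were the helix-loop-helix inhibitors ID2 (-0.28 ± 0.16) and ID1 (-0.19 ± 0.13), both with H2BK120R arrays below vector arrays.

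Immediate early genes of other functions, such as phosphatases and growth factors, were lower for 20 of 34 measured genes, with a median of -0.04 and 0 at an unadjusted p under 0.05 in limma. The smallest p-values belonged to PHLDA1 (0.17 ± 0.11), the survival gene MCL1 (0.18 ± 0.12) and the ERK phosphatase gene DUSP5 (-0.23 ± 0.17). Among 12 measured bZIP partners of AP-1, 4 were lower and 8 higher (median 0.06). BATF3, which lacks an activation domain and pairs with JUN proteins, was the 1 with an unadjusted p under 0.05. It was at 7.57 and 7.76 in H2BK120R cells, against 8.13 and 8.44 in vector cells, a difference of -0.62 ± 0.23 (SE, limma adjusted p = 0.738). ATF2, a JUN partner at CRE sites, differed by 0.19 ± 0.13, BATF by 0.43 ± 0.39, MAFA by -0.36 ± 0.33 and JDP2, a repressor of AP-1, by 0.20 ± 0.19, and none of these passed. The BATF (4.72 to 5.93) and MAFA (4.62 to 5.39) probe sets were dim, below the median of every array.

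Upstream of AP-1, 17 genes of the MAP kinase cascades were measured, with 9 lower, 7 higher, 1 equal and a median of -0.02. RPS6KA2, a kinase of the RSK family downstream of ERK, was at 4.01 and 3.02 in H2BK120R cells, against 4.83 and 4.33 in vector cells. Its difference of -1.07 ± 0.38 (SE, limma adjusted p = 0.722), the 1 of the list with an unadjusted p under 0.05, was that of a dim probe set whose H2BK120R arrays were 0.99 apart. ARAF (-0.26 ± 0.13) and RPS6KA4 (-0.44 ± 0.24) followed by p. Of 11 measured cofactors of EGR1 and SRF and ternary complex factors, 6 were higher and 5 lower, and 1, MRTFB, had an unadjusted p under 0.05 in limma. MRTFB, an actin-regulated coactivator of serum response factor, was at 12.38 and 12.82 in H2BK120R cells, against 11.52 and 12.18 in vector cells, a difference of 0.75 ± 0.21 (SE, limma adjusted p = 0.678). The acetyltransferase gene CREBBP differed by 0.27 ± 0.14 and ELK1, a ternary complex factor, by -0.21 ± 0.16.

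Factors that set the stability of immediate early mRNAs or AP-1 proteins showed small differences. Of 10 measured genes for proteins that bind AU-rich elements or degrade their mRNAs, 5 were higher and 5 lower, and the 3 smallest p-values were those of PARN (0.27 ± 0.15), ZFP36L1 (0.13 ± 0.10) and CNOT7 (-0.15 ± 0.12). Of 9 measured genes for enzymes that act on AP-1 proteins, 7 were higher, with a median of 0.13 over the list. The list holds ligases and their subunits, kinases and USP28 (-0.04 ± 0.16), an enzyme that removes ubiquitin. Its smallest p-values were those of DET1 (0.30 ± 0.17), ITCH (0.22 ± 0.17) and CSNK2A1 (0.13 ± 0.11). In both lists 0 genes had an unadjusted p under 0.05 in limma.

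Known AP-1 targets lay on both sides of 0. Of 26 measured target genes 15 were lower and 11 higher, with a median of -0.05, and limma gave 3 an unadjusted p under 0.05 and 0 an adjusted one. PLAU, which encodes the urokinase protease and is activated by AP-1 at its enhancer, was at 11.16 and 10.95 in H2BK120R cells, against 11.45 and 11.62 in vector cells, a difference of -0.48 ± 0.15 (SE, limma adjusted p = 0.693). MMP7, an epithelial matrix protease, was at 9.11 and 8.95 in H2BK120R cells, against 8.44 and 8.55 in vector cells, a difference of 0.54 ± 0.20 (SE, adjusted p = 0.738 in limma). MT2A, a metallothionein, differed by -0.26 ± 0.11 (SE, adjusted p = 0.745 in limma). The pair of proteases thus differed in opposite directions. Over all 170 genes of these lists and of the marker lists, counted once, 9 had an unadjusted p under 0.05, of which 5 were lower and 4 higher, against the background of 6.7% in both directions.

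**Figure D4:**
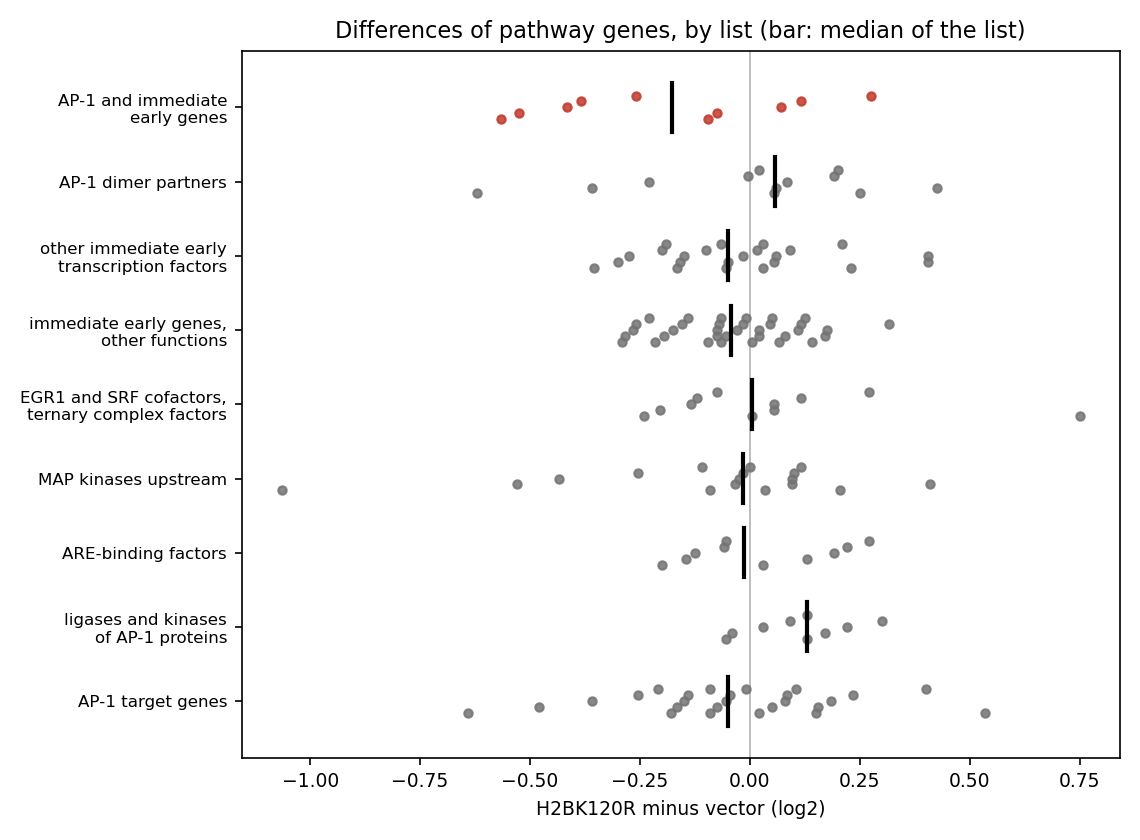
Difference between H2BK120R and vector (log2, x axis) of each measured gene, 1 row per list, with the median of the list as a black bar. The members (red) have a median of -0.18, and the medians of the other 8 lists drawn lie between -0.05 and 0.13. The marker lists are not drawn, and the leukocyte markers have a median of 0.21.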

How the data were processed

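RNA levels of 4 A549 samples were measured on an Affymetrix whole-transcript array; the sample titles give groups and replicate numbers. The table deposited by the authors holds 1 log2 level per probe set and array, which the authors had normalized between arrays; the log base is inferred from the range, 1.56 to 19.15, and the normalization from the equal medians. Per the submitters' processing notes MAS5 was used; its settings and the genome build are not stated there. Of 21448 probe sets, 17709 had 1 gene symbol in GEO's platform annotation, 0 had several and 3739 were unnamed. No pair of arrays shared more than 309 identical values.

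Groups were compared with limma 3.58.1 (R 4.3.3) by eBayes with a trend (two-sided, Benjamini-Hochberg over all probe sets, 2 residual and 8.95 prior degrees of freedom). The test was tried on simulated data. The members and the pathway and marker lists were chosen with earlier results of these data known. Named were all members, the 3 genes of each pathway list with the smallest p (5 for dimer partners), and the 5 genes nearest EGR1 over the arrays. Promoter sequences matched 8 of 10 members by symbol. Python 3.11.15 and matplotlib 3.10.9 drew the figures. Alternatives covered normalization, dim probe sets, the probe sets tested, the variance model, the replicate block and each array left out.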

Additional observations from a re-analysis of the deposited data

How the results depend on the processing

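Under every setting, limma called 0 probe sets, members or list genes at an adjusted p under 0.05, and adding a 1.5-fold or 2-fold minimum to that rule left 0 probe sets. Without the adjustment, an unadjusted p under 0.05 gave 1437 probe sets. The count of members at an unadjusted p under 0.05, 1 as reported, was 3 (FOSL1, JUND and EGR1) with quantile normalization, equal array medians or the replicate block, where 6.8%, 6.55% and 8.61% of probe sets were called, and 2 (FOSL1 and EGR1) with only named probe sets, where 6.47% were. It was 0 to 2 with 1 array left out: 0 without H2BK120R replicate 1. The 1437 probe sets became 903 with the dimmest 50% left out, where fewer were tested, and 495 to 2427 with 1 array left out. List genes at that threshold were 9 as reported and 3 to 10 with 1 array left out. With 1 array left out, the sign changed for FOS (-0.39 to 0.53; negative without H2BK120R replicate 1 and, at -0.22, without vector replicate 1), FOSB (-0.18 to 0.73; negative without H2BK120R replicate 1) and IER2 (-0.29 to 0.10; positive without vector replicate 1), and for no other member in any setting. Beyond the smaller number of arrays or probe sets, the cause was not tested. In such fits a lone array is taken to vary as much as the other group does. Where the groups did not overlap, leaving out 1 array cannot change the sign of a member. FOS and FOSB were among the dimmest 50% and had no value there. Replicate numbers are shared between the groups but no label says that they pair the samples; the replicate differences of the 2 groups correlated at 0.141 across probe sets, and with the replicate block 1846 probe sets had an unadjusted p under 0.05. Another pseudocount and another probe set per gene were not run, since the values are log2 and each member had 1 probe set. The number of arrays limits the precision, with a median standard error of 0.19 over the members.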
